A study of Metroxylon sagu with 6 samples.

Results

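The genes of jasmonate synthesis and signalling were described in leaf tissue of sago palm (*Metroxylon sagu*). They were taken from the annotation of the deposited Unigenes, which are transcript sequences assembled from the reads without a genome. A Unigene was counted as a member where its best Nr match was a protein of oil palm (*Elaeis guineensis*) or date palm (*Phoenix dactylifera*) and its SwissProt match named a lipoxygenase, an allene oxide enzyme, a 12-oxophytodienoate (OPDA) reductase, a jasmonate enzyme, a TIFY protein, the receptor COI1 (coronatine-insensitive protein) or the transcription factor MYC2. The rule found 103 members among 99933 Unigenes, and the SwissProt words alone found 105. No expression value entered the rule. The best Nr match was an oil palm protein for 70 members and a date palm protein for 33, and the lengths ran from 234 to 4783 nucleotides with a median of 1639. Of the members, 74 were contigs of 22 assembly clusters and 29 stood alone, so the number of genes is smaller than the number of members.

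Leaves of 6 palms were sequenced with 1 library for each palm, and all palms grew on peat soil in one plantation in Sarawak. The 3 trunking palms (ST1, ST4 and ST5), which had formed a trunk, were the control, and the 3 non-trunking palms (SN7, SN8 and SN9) had failed to form one. No treatment, age or genotype of the palms was given. The palms of each phenotype stood together at a place of their own, so phenotype and place cannot be told apart.

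Jasmonates are lipid hormones that plants make from a polyunsaturated fatty acid of the chloroplast, and they are known for the response of leaves to wounding, chewing insects and some stresses. A lipoxygenase, an allene oxide synthase and an allene oxide cyclase act in turn in the chloroplast, and the product OPDA is reduced and shortened in the peroxisome to jasmonic acid. Its isoleucine conjugate, made by JAR1, joins COI1 to the JAZ repressors of the TIFY family, which are then degraded and release MYC2, and in other plants many genes of the pathway are themselves induced by the hormone.

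The 6 libraries held between 17927176 and 18492907 expected counts, and the scaling factors of edgeR's TMM method ran from 0.824 (SN7) to 1.13 (SN9). The leaf identity was clear in the markers, since the 47 listed Unigenes of photosynthetic proteins summed to 16230 to 30372 FPKM in the trunking and 22119 to 36893 FPKM in the non-trunking palms. Markers of other tissues were low beside these, with the 11 root markers at 41.9 to 47.2 FPKM in the trunking and 27.1 to 35.1 FPKM in the non-trunking palms, the 17 of the shoot meristem at 410 to 461 and 323 to 443 FPKM, and the 26 of reproductive tissue at 276 to 432 and 225 to 317 FPKM. Of these markers 0 were at 0 in all 6 palms, and the groups were apart only in the root list. FPKM is a fragment count scaled by the length of the transcript and by the library total, so it can be compared between genes. The 87 listed clock Unigenes summed to 1555 to 1788 FPKM in the trunking and 1270 to 1904 FPKM in the non-trunking palms, with overlap. In edgeR's quasi-likelihood test 16 of the 76 tested were higher and 15 lower at an unadjusted p under 0.05. The shares of all Unigenes tested were 5.43% and 4.43%. Within this list LHY and GIGANTEA stood apart between the groups. The 13 Unigenes of LHY, a morning gene of the circadian clock, summed to 387, 188 and 162 FPKM in ST1, ST4 and ST5. In SN7, SN8 and SN9 they summed to 528, 585 and 603 FPKM. The 12 Unigenes of GIGANTEA, an evening gene of the clock, summed to 410, 468 and 579 FPKM against 119, 228 and 194 FPKM. Whether these differences in clock genes and root markers have a part in the values of the jasmonate genes was not tested.

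The non-trunking leaves gave a smaller share of their fragments to the jasmonate genes. The members held 0.625%, 0.469% and 0.727% of all expected counts in ST1, ST4 and ST5, and 0.388%, 0.397% and 0.366% in SN7, SN8 and SN9. The groups did not overlap, and the mean share was 0.607% ± 0.130 (SD, n = 3) against 0.384% ± 0.0161 (SD, n = 3). Much of this difference lay in the lipoxygenase CL3310.Contig1, which alone held 0.136% to 0.187% of all expected counts in the trunking and 0.0272% to 0.0404% in the non-trunking palms. Without it the members held 0.438%, 0.333% and 0.548% in the trunking and 0.361%, 0.357% and 0.328% in the non-trunking palms, and the groups overlapped through ST4. In a leaf sample, fewer cells that express a gene and less RNA per cell cannot be told apart.

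Of the 103 members, 95 passed the filter on low counts and entered the test, which was edgeR's quasi-likelihood test fitted on all 45928 Unigenes that passed. The other 8 members had at most 5.81 FPKM in any palm. The p of the test after Benjamini-Hochberg adjustment over all Unigenes tested is called the edgeR adjusted p. It was under 0.05 in 0 of the 95 members, as in 0% of all Unigenes tested, and its smallest value over all Unigenes was 0.161. Without adjustment 9 members (9.47%) had a p under 0.05, against 9.85% of all Unigenes tested. Of the 95 members, 3 had such a p and lay higher in the non-trunking palms, against 5.43% of all Unigenes tested. Another 6 of the 95 lay lower, against 4.43%. The groups did not overlap in 12 members (12.6%), against 17.3% of all Unigenes tested. By these counts the jasmonate genes as a whole differed between the phenotypes no more often than other genes.

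Other tests on the same counts called 2 members, a lipoxygenase that was lower and an OPDA reductase that was higher in the non-trunking palms. DESeq2's Wald test called them with an adjusted p under 0.05 beside 2.22% of all Unigenes with an adjusted p. The likelihood ratio test of edgeR called the same 2 members beside 1.68% of all Unigenes tested. The log2 fold changes, taken as non-trunking minus trunking, had a median of -0.35 over the 95 members and 0.02 over all Unigenes tested. They were negative in 59 of the 95 members and positive in 36, whereas 51.4% of all Unigenes tested were positive. Without ST5 the median of the members was -0.06. Members that are contigs of one cluster can share reads, so these counts, and those by role below, are not of separate measurements.

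**Figure D1:**
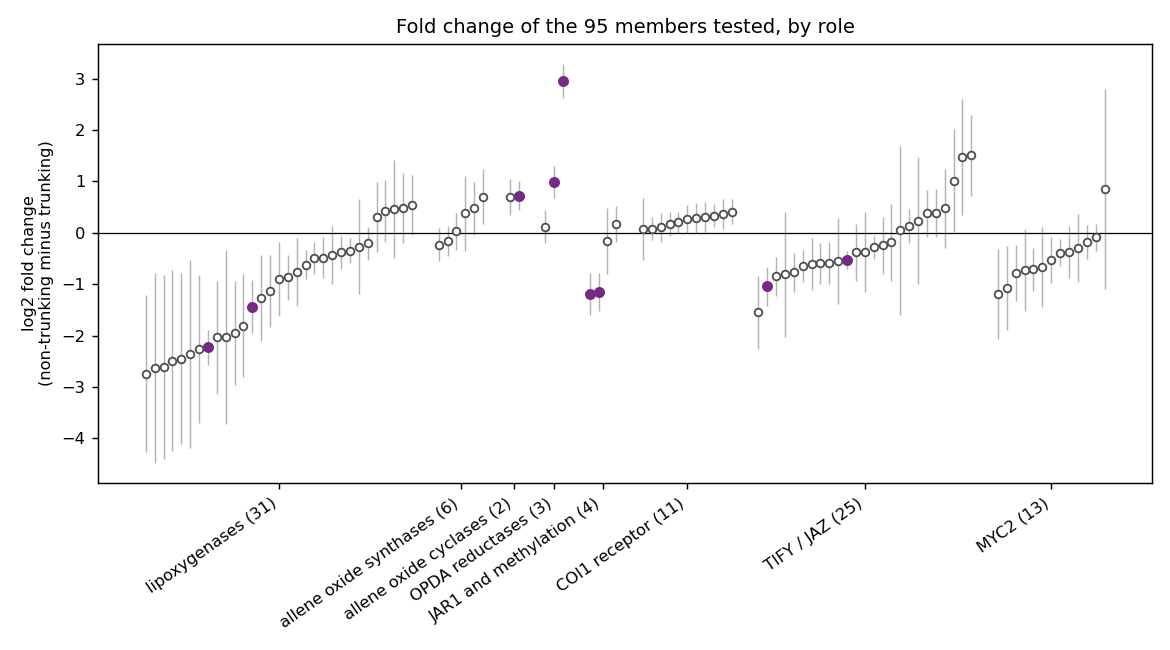
Log2 fold change (non-trunking minus trunking) of the 95 members tested, ordered within each role on the x axis. Circles are edgeR's estimates, lines are 1 standard error on either side, and the 9 filled circles have an unadjusted p under 0.05. The 2 extreme filled circles are the OPDA reductase Unigene685 at 2.95 and, among the lipoxygenases, CL3310.Contig1 at -2.23.

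Lipoxygenases, which add oxygen to the fatty acid at the start of the pathway, were the largest role group with 32 members, and their summed level was lower in every non-trunking palm than in any trunking palm. Their summed FPKM was 1099, 807 and 1857 in ST1, ST4 and ST5, and 405, 505 and 401 in SN7, SN8 and SN9. The mean was 1254 ± 542 FPKM against 437 ± 59.0 FPKM (SD, n = 3 each), over the palms. Cluster CL3310 held 71.6%, 74.6% and 41.3% of these sums in the trunking palms and 38.1%, 56.7% and 63.1% in the non-trunking palms. Without this cluster the sums of the groups overlapped, with ST4 below SN7 and SN8. Of the 31 members tested, 26 had a negative log2 fold change, and the median was -0.89. Without ST5, 21 of 32 were negative and the median was -0.37.

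The largest part of this sum was CL3310.Contig1, of 3024 nucleotides, whose best match is the chloroplastic 13S-lipoxygenase 2-1 of potato. Enzymes of this kind oxygenate linolenic acid at the position that leads to jasmonates and to leaf volatiles. CL3310.Contig1 had 632, 458 and 606 FPKM in ST1, ST4 and ST5, and 91.7, 136 and 127 FPKM in SN7, SN8 and SN9. The groups lay far apart, with every trunking palm more than 3 times above the highest non-trunking palm. In CPM, a count scaled by TMM and library size, the means were 1673 ± 378 and 358 ± 41.0 (SD, n = 3 each), so that it was 4.68-fold lower in the non-trunking palms. This gave a log2 fold change of -2.23 ± 0.34 (SE), with an unadjusted p of 0.000353 and an edgeR adjusted p of 0.185. It stayed between -2.40 and -2.10 when each palm was left out in turn, with an edgeR adjusted p between 0.211 and 0.496. The adjusted p was 2.83e-10 in DESeq2 and 1.59e-05 in the likelihood ratio test of edgeR.

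The neighbouring contigs of the same assembly cluster differed less. CL3310.Contig4 had 72.7, 65.2 and 71.8 FPKM in the trunking palms and 29.1, 72.6 and 57.9 FPKM in the non-trunking palms. CL3310.Contig6 had 63.2, 63.1 and 71.9 FPKM against 25.9, 64.9 and 48.3 FPKM. In both, SN7 was lowest and SN8 lay among the trunking palms. CL3310.Contig2, CL3310.Contig3 and CL3310.Contig5 were at a lower level, with overlapping groups and log2 fold changes of 0.54, -0.87 and -0.35. The contigs of a cluster are similar sequences that can share reads, so the split of counts among them is uncertain. With the counts of the 6 contigs summed, the cluster had 2395, 1582 and 2280 CPM against 546, 810 and 629 CPM, and the groups still did not overlap. The fitted log2 fold change of the sum was -1.66 ± 0.32 (SE), with an edgeR adjusted p of 0.160 over clusters. CL3310.Contig1 held 81.7%, 77.6% and 80.5% of the cluster's expected counts in the trunking palms and 61.6%, 49.6% and 52.9% in the non-trunking palms. Its share was thus lower in every non-trunking palm. Among these palms it was highest in SN7, where the cluster's level was lowest.

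The other type 2 lipoxygenase of high level was Unigene10001, a match to the probable lipoxygenase 8 of rice. It had 68.2, 84.9 and 115 FPKM in ST1, ST4 and ST5, and 50.8, 97.2 and 79.0 FPKM in SN7, SN8 and SN9. The groups overlapped, with a log2 fold change of -0.21 ± 0.32 (SE) and an edgeR adjusted p of 0.876. A short fragment matched to the same rice protein, Unigene29700, was low throughout. Its FPKM was 4.41, 5.02 and 1.77 against 0.98, 1.10 and 1.90, so that ST5 and SN9 overlapped in FPKM but not in CPM. It had a log2 fold change of -1.44 ± 0.52 (SE), with an unadjusted p of 0.0284 and an edgeR adjusted p of 0.446.

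The 17 lipoxygenases matched to types 3 to 6 behaved in another way, since they varied most between palms of one phenotype. Their summed FPKM was 201, 82.9 and 944 in ST1, ST4 and ST5, and 186, 97.3 and 38.6 in SN7, SN8 and SN9. One palm, ST5, was therefore far above all others, and the remaining trunking palms lay within or near the range of the non-trunking palms. Most of this sum came from cluster CL1495, of 12 contigs, 11 of which were highest in ST5. Its most abundant contig, CL1495.Contig11, which is matched to the chloroplastic lipoxygenase 3 of Arabidopsis, had 72.5, 34.1 and 299 FPKM against 57.6, 27.3 and 9.96 FPKM. Lipoxygenase 3 is one of the wound-induced enzymes of jasmonate synthesis in that species. Between its highest and lowest palm CL1495.Contig11 differed 8.76-fold within the trunking and 5.79-fold within the non-trunking palms. Between the groups the log2 fold change of -1.94 ± 1.01 (SE) had an unadjusted p of 0.0980 and an edgeR adjusted p of 0.590, and it ran from -2.92 without SN7 to -0.59 without ST5. The cluster sum gave -1.61 ± 0.97 (SE), with an edgeR adjusted p of 0.599.

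The 7 members matched to 9S-lipoxygenases, which feed other oxylipins than jasmonate, were low. They summed to 37.9, 32.2 and 30.2 FPKM in the trunking palms and to 12.9, 23.2 and 28.3 FPKM in the non-trunking palms. These sums did not overlap, although SN9 came close to ST5. Of the 7, CL3421.Contig1 was the most abundant, with 11.7, 20.2 and 14.1 FPKM against 7.75, 7.32 and 14.0 FPKM. On the log2 scale the fold change was -0.62 ± 0.27 (SE), with an unadjusted p of 0.0605 and an edgeR adjusted p of 0.529.

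**Figure D2:**
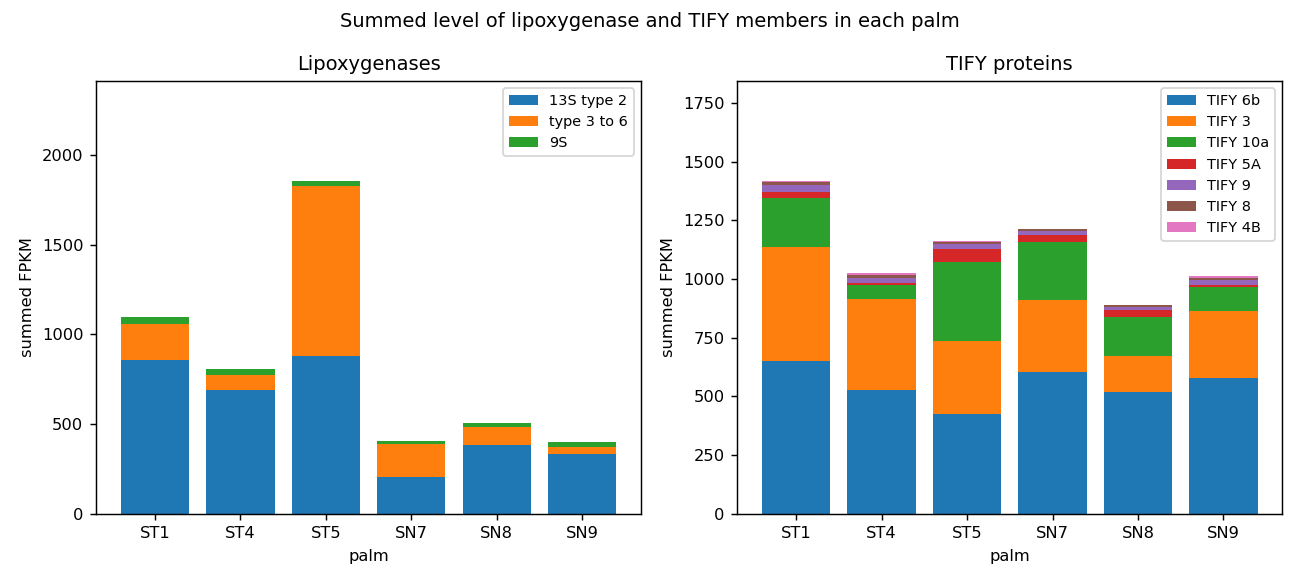
Summed FPKM of the lipoxygenase members (left) and the TIFY members (right) in each palm, stacked by the kind named in SwissProt. Each bar is 1 library, so no error bar is drawn. The type 2 lipoxygenases sum to 692 to 883 FPKM in the trunking and 206 to 384 FPKM in the non-trunking palms, types 3 to 6 peak at 944 FPKM in ST5, and the TIFY sums of the groups overlap.

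Allene oxide synthase, which turns the fatty acid hydroperoxide into an unstable epoxide, had 6 members, of which 5 were contigs of 1 cluster. Their summed FPKM was 70.6, 49.4 and 92.1 in ST1, ST4 and ST5, and 79.6, 107 and 53.8 in SN7, SN8 and SN9. The groups overlapped, and within each the palms differed nearly 2-fold. CL3773.Contig3, the most abundant contig, had 20.9, 9.53 and 27.8 FPKM against 28.6, 33.1 and 14.96 FPKM. Its log2 fold change was 0.48 ± 0.52 (SE), with an edgeR adjusted p of 0.813. CL3773.Contig5 followed the same order of palms, with 14.7, 7.00 and 20.8 FPKM against 26.1, 27.1 and 12.1 FPKM. No direction can be given for this group, since 4 of 6 log2 fold changes were positive with TMM scaling and 3 of 6 with library size alone.

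Allene oxide cyclase, which sets the stereochemistry of OPDA, had 2 members in 1 cluster, and both were higher in the non-trunking palms in FPKM. CL8543.Contig1 had 17.2, 11.0 and 11.2 FPKM in ST1, ST4 and ST5, and 20.9, 17.6 and 24.6 FPKM in SN7, SN8 and SN9. CL8543.Contig2 had 9.08, 4.69 and 7.85 FPKM against 12.2, 10.4 and 10.9 FPKM. The FPKM of the groups did not overlap in either contig, but in TMM-scaled CPM the first contig did. The log2 fold changes were 0.73 ± 0.28 and 0.69 ± 0.35 (SE), with unadjusted p of 0.0375 and 0.0880 and edgeR adjusted p of 0.470 and 0.574. For the sum of the cluster the log2 fold change was 0.71 ± 0.28 (SE), with an edgeR adjusted p of 0.431 over clusters.

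The OPDA reductases held the member with the largest positive fold change. Unigene685, of 1314 nucleotides, had 3.63, 6.47 and 2.90 FPKM in ST1, ST4 and ST5, and 32.8, 32.1 and 28.7 FPKM in SN7, SN8 and SN9. The 3 non-trunking palms lay close together, and all were more than 4 times above the highest trunking palm. In TMM-scaled CPM the means were 5.28 ± 1.93 and 40.9 ± 9.04 (SD, n = 3 each), so that it was 7.73-fold higher in the non-trunking palms. This gave a log2 fold change of 2.95 ± 0.34 (SE), with an unadjusted p of 6.11e-05 and an edgeR adjusted p of 0.161. With each palm left out in turn it ran from 2.74 to 3.27, with an edgeR adjusted p between 0.204 and 0.496. The adjusted p was 2.74e-10 in DESeq2 and 4.52e-09 in the likelihood ratio test of edgeR.

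Unigene685 is matched to reductase 2 of Arabidopsis and to a putative reductase 11 of oil palm. In Arabidopsis reductase 2 is a cytosolic enzyme with little activity on the OPDA isomer that leads to jasmonate in the main pathway. The form of the main pathway is the peroxisomal one, which in rice is reductase 7, and its match here was Unigene1099. Unigene1099 had 33.8, 31.3 and 33.96 FPKM in the trunking palms and 20.3, 52.6 and 32.5 FPKM in the non-trunking palms. The trunking palms lay within the range of the non-trunking palms, and its log2 fold change of 0.12 ± 0.32 (SE) had an edgeR adjusted p of 0.936. Its sign changed with the scale and without SN8. Unigene685 made up 8.76%, 14.8% and 6.94% of the summed FPKM of the OPDA reductases in the trunking palms and 51.5%, 33.3% and 42.0% in the non-trunking palms.

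A further member matched to reductase 2, CL9671.Contig1, also lay higher in the non-trunking palms. It had 3.88, 5.60 and 4.43 FPKM against 9.99, 8.80 and 6.75 FPKM, without overlap. The fitted log2 fold change was 0.98 ± 0.31 (SE), with an unadjusted p of 0.0155 and an edgeR adjusted p of 0.394. The other contig of this cluster, CL9671.Contig2, was matched to reductase 1 of tomato. It had at most 3.01 FPKM in any palm and was not tested.

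JAR1, the enzyme that joins jasmonic acid to isoleucine and so makes the active hormone, had 4 members tested. Both contigs of cluster CL6074 lay lower in the non-trunking palms. CL6074.Contig1 had 5.74, 5.46 and 3.11 FPKM in ST1, ST4 and ST5, and 1.86, 1.68 and 2.66 FPKM in SN7, SN8 and SN9. CL6074.Contig2 had 6.76, 4.88 and 3.68 FPKM against 1.84, 1.28 and 3.52 FPKM. In both contigs the groups did not overlap, with ST5 as the lowest trunking palm and SN9 as the highest non-trunking palm. The log2 fold changes were -1.15 ± 0.37 and -1.18 ± 0.41 (SE), with unadjusted p of 0.0174 and 0.0235 and edgeR adjusted p of 0.404 and 0.431. Most JAR1 transcript belonged to another Unigene, Unigene29189, which had 24.1, 22.1 and 41.2 FPKM against 34.8, 26.9 and 31.9 FPKM. Here the groups overlapped, with a log2 fold change of 0.17 ± 0.34 (SE) and an edgeR adjusted p of 0.907. Unigene22492 had 2.21, 2.31 and 8.35 FPKM against 2.60, 6.16 and 2.5 FPKM, and its groups overlapped as well. The fifth member of this role group, CL4181.Contig2, was matched to a jasmonate methyltransferase in SwissProt but to a salicylate methyltransferase in Nr. It was listed at no more than 0.76 FPKM and was not tested.

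**Figure D3:**
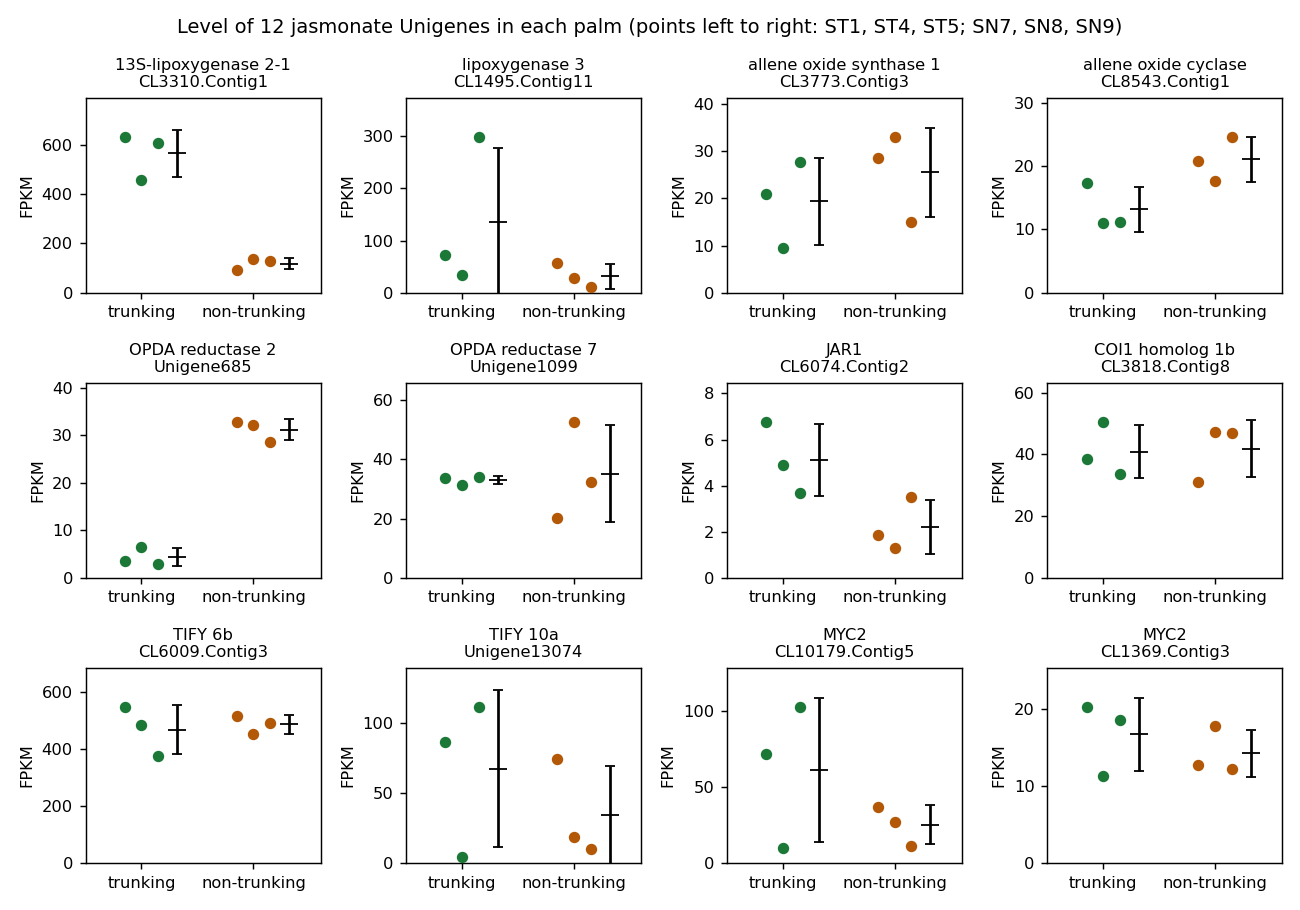
FPKM of 12 jasmonate Unigenes in each palm. Each panel is 1 Unigene with its own y axis from 0, points are the palms ST1, ST4 and ST5 (green) and SN7, SN8 and SN9 (orange), and the bar beside them is the mean with 1 SD on either side (n = 3), cut off at 0 where it would go below. CL3310.Contig1 and Unigene685 separate the groups widely, whereas CL1495.Contig11, Unigene13074 and CL10179.Contig5 vary strongly between palms of one group.

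COI1, the F-box protein that binds the hormone together with a JAZ repressor, had 12 members, most of them contigs of one cluster. Their summed FPKM was 171, 183 and 139 in ST1, ST4 and ST5, and 142, 216 and 194 in SN7, SN8 and SN9. The groups overlapped. CL3818.Contig8, the most abundant contig and a match to homolog 1b of rice, had 38.4, 50.5 and 33.8 FPKM against 31.2, 47.4 and 46.9 FPKM. Between the groups the log2 fold change was 0.08 ± 0.22 (SE), with an edgeR adjusted p of 0.936. CL3818.Contig1 had the smallest p of the group, with 16.8, 14.7 and 14.4 FPKM against 14.8, 26.2 and 18.4 FPKM. On the log2 scale the fold change was 0.41 ± 0.25 (SE), with an edgeR adjusted p of 0.642. All 11 members tested had a small positive log2 fold change, with a median of 0.26, and 9 of the 11 were highest in SN8. Contigs of one cluster can share reads, so they are not separate measurements, and without ST5 the fold change was positive in 8 of the 11. The receptor members varied little within a group, with a median log2 range of 0.51 within the trunking and 0.47 within the non-trunking palms, where all Unigenes tested had medians of 0.66 and 0.76.

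The TIFY family, which holds the JAZ repressors, had 29 members of which 25 were tested. Their summed FPKM was 1418, 1025 and 1163 in ST1, ST4 and ST5, and 1216, 890 and 1012 in SN7, SN8 and SN9. The groups overlapped. Of the log2 fold changes 16 were negative and 9 positive, with a median of -0.37. The most abundant was CL6009.Contig3, a match to TIFY 6b of rice, with 548, 484 and 375 FPKM against 517, 453 and 492 FPKM. Its highest and lowest palms differed 1.46-fold, with a log2 fold change of 0.13 ± 0.33 (SE) and an edgeR adjusted p of 0.930. It made up between 32.2% and 50.9% of the summed FPKM of the family.

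The members matched to TIFY 3 of rice all had a negative fold change. Of the pair of contigs that carry most of it, CL1067.Contig4 had 235, 184 and 144 FPKM in the trunking palms and 149, 67.9 and 135 FPKM in the non-trunking palms. The groups overlapped through ST5 and SN7, and the log2 fold change of -0.59 ± 0.41 (SE) had an edgeR adjusted p of 0.696. Unigene19985 had 30.4, 28.3 and 27.7 FPKM against 17.0, 20.5 and 20.0 FPKM. The groups were narrow and did not overlap. Its log2 fold change of -0.53 ± 0.18 (SE) had an unadjusted p of 0.0219 and an edgeR adjusted p of 0.422.

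TIFY 9, which in Arabidopsis is a repressor that dampens the response after induction, had 8 low members. CL2247.Contig4 had 6.51, 4.25 and 4.20 FPKM against 2.46, 1.68 and 2.86 FPKM, without overlap. The log2 fold change of -1.04 ± 0.38 (SE) had an unadjusted p of 0.0291 and an edgeR adjusted p of 0.446. The 8 members summed to 31.4, 23.3 and 20.7 FPKM in the trunking and to 20.6, 11.6 and 19.0 FPKM in the non-trunking palms, where ST5 and SN7 were nearly equal. TIFY 4B and TIFY 8, which are family members outside the JAZ repressors, summed to at most 6.86 and 12.8 FPKM in any palm.

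The 6 members matched to TIFY 10a of rice had no common direction, with 3 positive and 3 negative log2 fold changes, but they varied strongly between palms of one phenotype. They summed to 206, 57.6 and 339 FPKM in ST1, ST4 and ST5, and to 248, 169 and 101 FPKM in SN7, SN8 and SN9. Unigene13074, chosen after its values were seen, had 86.4, 4.32 and 112 FPKM against 74.7, 18.4 and 10.04 FPKM. Its highest and lowest palms differed 25.8-fold within the trunking and 7.44-fold within the non-trunking palms, while its log2 fold change between the groups was -0.80 ± 1.22 (SE), with an edgeR adjusted p of 0.874. Unigene31405, also chosen after its values were seen, had 7.96, 0.33 and 17.0 FPKM against 18.7, 4.11 and 3.79 FPKM. In both, ST4 was the lowest palm of all and SN9 the lowest of the non-trunking palms. The 3 members matched to TIFY 5A, a repressor of Arabidopsis, summed in the same order of palms in the trunking group, with 27.9, 8.12 and 53.7 FPKM against 27.3, 29.7 and 8.93 FPKM.

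MYC2, the transcription factor that the JAZ repressors hold back, had 13 members, all tested. Their summed FPKM was 286, 80.3 and 368 in ST1, ST4 and ST5, and 171, 144 and 90.3 in SN7, SN8 and SN9. The range of the trunking palms enclosed that of the non-trunking palms. CL10179.Contig5, the most abundant, had 71.3, 9.74 and 102 FPKM against 36.9, 26.6 and 11.4 FPKM. The fitted log2 fold change of -1.19 ± 0.88 (SE) had an edgeR adjusted p of 0.713. CL10179.Contig1 had nearly the same profile, with 64.5, 9.33 and 84.1 FPKM against 33.5, 23.6 and 12.9 FPKM. Between the groups the log2 fold change was negative in 12 of the 13 members, with a median of -0.53, and in 10 of 13 without ST5. Contigs of one cluster can share reads, so they are not separate measurements. With the counts summed per cluster, the log2 fold change was -0.96 for CL10179, -0.35 for CL1369 and 0.01 for CL730. These sums take in contigs that are not members, since 6 of the 7 contigs of CL10179 and only 1 of the 7 of CL730 are members. The member of CL730, CL730.Contig4, had a log2 fold change of -0.09 by itself. For the members that stood alone it was -0.53 (Unigene12843), -0.29 (Unigene6457) and 0.86 (Unigene6456). None reached an unadjusted p under 0.05. CL730.Contig4, called MYC2 in SwissProt, was named nucleolin in Nr and had at most 1.99 FPKM.

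In some role groups many members shared an order of the palms within each phenotype. ST4 was the lowest trunking palm in 61 of the 95 members tested (64.2%), against 34.96% of all Unigenes tested. ST4 and SN9 were both the lowest of their groups in 38 members (40.0%), against 15.1% of all Unigenes tested. This order was seen in 11 of the 12 contigs of the lipoxygenase cluster CL1495, in 9 of 13 MYC2 members, in 8 of 25 TIFY members, in 3 of 6 allene oxide synthases and in 1 of 2 allene oxide cyclases. It was seen in 3 of 11 receptor members, in 1 of 4 conjugating enzymes, in 2 of the 19 lipoxygenases outside CL1495 and in 0 of 3 OPDA reductases, so most members did not follow it. These counts were made after the values were seen, and members of one cluster can share reads, so they are descriptions. SN9 was the highest of all palms in 1 member (1.05%), against 14.7% of all Unigenes tested.

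The spread within a group was wider for these genes than for the median Unigene. The median log2 range over the 3 trunking palms, in log2(CPM + 0.5), was 1.05 for the members and 0.66 for all Unigenes tested, and over the 3 non-trunking palms it was 1.17 and 0.76. By role the median range within the trunking palms was 1.97 for the lipoxygenases, 1.64 for MYC2, 1.03 for the TIFY family, 0.96 for the conjugating enzymes, 0.92 for the allene oxide cyclases, 0.83 for the allene oxide synthases, 0.51 for the receptor and 0.32 for the OPDA reductases. These medians count large clusters many times. Of the 31 lipoxygenases tested, 12 were contigs of CL1495, with ranges from 1.36 to 6.57, while the 6 contigs of CL3310 had 0.18 to 1.21. Of the 13 MYC2 members, 6 were contigs of CL10179. In 72 of the 95 members (75.8%) the range within the trunking palms was larger than the size of the log2 fold change between the groups. This was near the 71.9% of all Unigenes tested.

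**Figure D4:**
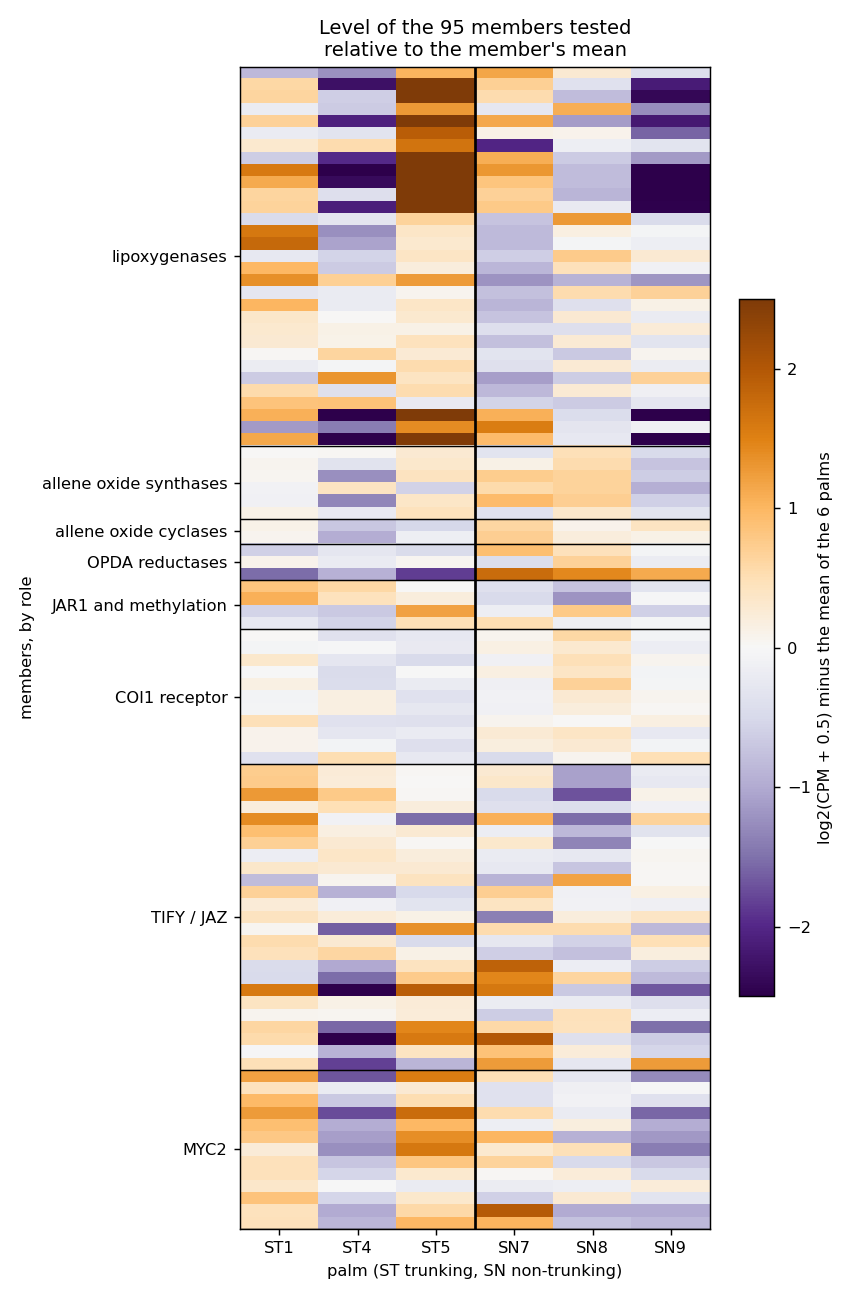
Level of the 95 members tested in each palm, as log2(CPM + 0.5) minus the member's mean over the 6 palms, with members in rows by role and palms in columns. Orange is above and purple below the mean, colours are cut off at 2.5 on either side, and the vertical line parts the phenotypes. ST4 and SN9 are purple in many lipoxygenase, TIFY and MYC2 rows where ST5 is orange, and the receptor rows are pale.

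Genes around the core pathway were taken by SwissProt words from the same palm-matched Unigenes. They gave 159 Unigenes in 6 lists, of which 128 were tested. Without adjustment 9 had a p under 0.05 and lay higher in the non-trunking palms and 7 lay lower, together 12.5% of those tested, against 9.85% of all Unigenes, of which 5.43% were higher and 4.43% lower. In edgeR's quasi-likelihood test 0 had an adjusted p under 0.05, and DESeq2 called 3, beside 2.22% of all Unigenes with an adjusted p.

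In the supply of fatty acids, 19 Unigenes were tested. At an unadjusted p under 0.05, 4 were higher and 0 lower, beside 5.43% and 4.43% of all Unigenes tested. The smallest p belonged to CL2421.Contig1, a chloroplastic omega-3 fatty acid desaturase, which makes linolenic acid. It had 12.3, 10.4 and 25.6 FPKM in ST1, ST4 and ST5, and 96.5, 27.4 and 40.7 FPKM in SN7, SN8 and SN9. The groups just failed to overlap, and the log2 fold change of 1.91 ± 0.66 (SE) had an unadjusted p of 0.0237 and an edgeR adjusted p of 0.431. The other 3 were phospholipases of type A1. Among 34 Unigenes of the beta-oxidation that shortens the side chain, 0 reached that p, against 9.85% of all Unigenes tested. The smallest was that of Unigene19227, a peroxisomal ABC transporter of the D family, with 1.10, 1.43 and 0.93 FPKM against 1.65, 1.44 and 2.37 FPKM and an edgeR adjusted p of 0.566.

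The branch that competes for the hydroperoxides had 1 Unigene tested. This was CL1497.Contig3, a hydroperoxide lyase that makes the volatile aldehydes of cut leaves. It had 137, 128 and 104 FPKM in the trunking palms and 77.1, 83.4 and 71.3 FPKM in the non-trunking palms, without overlap. On the log2 scale the fold change of -0.59 ± 0.27 (SE) had an unadjusted p of 0.0667 and an edgeR adjusted p of 0.538.

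Among 24 tested Unigenes of turnover, 2 were higher and 6 lower at an unadjusted p under 0.05, beside 5.43% and 4.43% of all Unigenes tested. Of the 6, 4 were amidohydrolases of the ILR1-like family, which split amino acid conjugates of auxin and, for some members in Arabidopsis, of jasmonate, and 2 were matched to the cytochrome P450 family 94, of which members oxidise the hormone conjugate in that species. CL7853.Contig2, an ILR1-like hydrolase with the smallest p, had 17.4, 15.7 and 20.4 FPKM against 5.82, 9.70 and 9.59 FPKM. The groups did not overlap. Its log2 fold change was -1.06 ± 0.23 (SE), with an unadjusted p of 0.00260, an edgeR adjusted p of 0.242 and a DESeq2 adjusted p of 0.0387. Of the 2 that were higher, 1 was also an ILR1-like hydrolase and 1 a P450 of family 94, so both families had members in each direction.

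Signalling partners, such as the corepressors of the JAZ proteins, had 39 Unigenes tested. At an unadjusted p under 0.05, 0 were higher and 1 lower, beside 5.43% and 4.43% of all Unigenes tested. The lower one, Unigene7446, was matched to an ABA-inducible bHLH factor and had 7.13, 3.31 and 4.82 FPKM against 2.5, 2.41 and 2.44 FPKM. Its groups did not overlap, and the log2 fold change of -1.01 ± 0.39 (SE) had an edgeR adjusted p of 0.469.

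The list of kinds that jasmonate is known to induce in other plants had only 11 Unigenes tested. At an unadjusted p under 0.05, 3 were higher and 0 lower, beside 5.43% and 4.43% of all Unigenes tested. Unigene29470, a polyphenol oxidase, which browns wounded tissue and hinders the digestion of insects, had 7.30, 4.69 and 11.9 FPKM in ST1, ST4 and ST5, and 18.7, 39.4 and 24.7 FPKM in SN7, SN8 and SN9. The groups did not overlap. The log2 fold change was 1.82 ± 0.43 (SE), with an unadjusted p of 0.00438, an edgeR adjusted p of 0.281 and a DESeq2 adjusted p of 0.0127. Unigene23048, a cysteine proteinase inhibitor chosen after its values were seen, had 78.7, 88.4 and 49.2 FPKM against 218, 135 and 158 FPKM, without overlap. The fitted log2 fold change was 1.35 ± 0.36 (SE), with an edgeR adjusted p of 0.334 and a DESeq2 adjusted p of 0.0480.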

How the data were processed

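The authors enriched messenger RNA from total RNA that was extracted with CTAB, sequenced it on the BGISEQ-500 platform, assembled clean reads with Trinity, clustered contigs with TGICL, mapped each library back with Bowtie2 and quantified it with RSEM. Their versions were not given in the sources used here. The authors deposited 2 values per Unigene and library, an expected count that is not normalized and an FPKM scaled by transcript length and library total. Unigenes are listed in a library only from an FPKM of 0.01, and an unlisted value was set to 0. Reads shared by similar contigs are divided by the model of RSEM. No genome was used, so the members have no chromosome position, and sequences were not analysed here.

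Rounded expected counts entered edgeR 4.0.16 under R 4.3.3, with filterByExpr, TMM scaling and the two-sided quasi-likelihood test (glmQLFit, glmQLFTest, Benjamini-Hochberg over all Unigenes tested, threshold 0.05). An SE was derived from each fold change as its size over the root of F. An exact permutation test of 3 against 3 palms cannot go below 0.1. Nothing says that replicates were more than single palms. The p-values set the difference between the groups against the spread between palms of one group. Since phenotype and place coincide, they apply to a difference between places as well. The biological coefficient of variation was 0.497.

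The alternatives were DESeq2 1.42.0 (an adjusted p was empty for 46984 Unigenes and stayed so), the likelihood ratio test of edgeR, limma 3.58.1 on log2(FPKM + 1) and log2(FPKM + 0.1) over Unigenes that reached an FPKM of 1 in 3 or more libraries, library size alone, no filter, counts summed per cluster, the SwissProt words alone, and each palm left out. Tables and figures were made in Python 3.11.15 (pandas 2.3.3, NumPy 2.4.6, Matplotlib 3.10.9). Simulated counts with a fixed spread between libraries, smaller than that of the real data, were used to check the fits. They cannot show how the tests perform at the real spread.

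The members, role groups and lists were chosen with earlier results of these data known. Word boundaries were added to the words for thionin, ERF and bHLH factors once the annotation had been read, since they also matched unrelated names. The rule for naming took, in each role group, the 2 members of highest mean FPKM and the 2 of smallest p, every member past the threshold in edgeR or DESeq2, their fellow contigs, and the Unigene of smallest p in each wider list. Of the members taken by this rule, CL10179.Contig2, CL10179.Contig4, CL3818.Contig5 and CL3818.Contig7 are not described above. Unigene10001, CL3421.Contig1, Unigene13074, Unigene31405, CL4181.Contig2, CL730.Contig4 and Unigene23048 were named outside this rule after their values were seen. Unigene12843, Unigene6457 and Unigene6456 were also named outside it, beside the cluster sums of MYC2.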

Additional observations from a re-analysis of the deposited data

How the results depend on the processing

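No paired analysis was possible because the groups were different palms, with each phenotype at a place of its own. The count of members with an adjusted p under 0.05 was 0 in edgeR's quasi-likelihood test and 2 in both DESeq2 and the likelihood ratio test, and it was 0 with limma on log2(FPKM + 1), library size alone, no filter, counts summed per cluster, the SwissProt words alone and each palm left out. The count at an unadjusted p under 0.05 was 9, and it ran from 5 without ST1 to 16 without ST4. Their median log2 fold change of -0.35 ran from -0.46 without ST4 to -0.064 without ST5. Groups did not overlap in 12 members, and in 7 clusters or single Unigenes when counts were summed per cluster, where fewer units were counted. Of the wider pathway 16 Unigenes had an unadjusted p under 0.05, and leaving out a palm gave from 7 without ST5 to 12, with 8 without SN9 and 10 without ST1. The share of all Unigenes at an unadjusted p under 0.05 or without overlap was counted in the main fit only, and not over clusters. The changes in these counts can therefore not be read as results about the jasmonate genes. Fold changes were recomputed for 26 members taken by the rule for naming, without the fellow contigs of CL3310.Contig1, CL9671.Contig2 and the members named outside the rule. The 312 values leave out the likelihood ratio test, and contigs of one cluster share the value of the cluster sum, so they are not separate checks. Of the 312 values, 300 kept their direction and their side of the threshold. Keeping the side says little, since 0 members were past the threshold in the main fit. Another 2 values passed the threshold (Unigene685 and CL3310.Contig1 in DESeq2), and 10 changed sign, in 5 members that were never past it. Unigene1099 was at -0.016 and -0.012 with limma (pseudocounts of 0.1 and 1) and ran from -0.28 to 0.32 with a palm left out. CL6009.Contig3 ran from -0.054 to 0.31, Unigene22492 from -0.67 to 0.80, Unigene29189 from -0.062 to 0.53 and CL3818.Contig8 from -0.025 to 0.19. The cause of these changes was not tested. The number of palms, 3 in each group, limits the precision of every fold change.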
